A study of Schizosaccharomyces pombe with 2 samples.

Results

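Antisense XUTs that run over an mRNA from end to end were examined in small RNA libraries of the fission yeast Schizosaccharomyces pombe. XUTs are long noncoding RNAs that were defined, from separate sequencing of total RNA, by their accumulation in cells without Exo2. A member is an XUT whose annotated start and end wholly contain at least 1 annotated mRNA on the opposite strand of the same chromosome. This rule uses positions and no read number. It found 46 XUTs among 1638 (2.81%), which is 3.82% of the 1205 XUTs that lay antisense to an mRNA over at least 50 nt. They covered 48 of the 5129 mRNAs (0.936%).

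The libraries came from exponential cultures of 2 strains, YAM2394 (WT) and YAM2397 (exo2Δ). Both are of the h+ mating type and carry the alleles ade6-M210, ura4-D18 and leu1-32, and YAM2397 also carries exo2Δ::kanMX4 in place of the gene. Small RNAs between 10 and 40 nt were purified on a gel and read as single ends. There was 1 library for each strain, so replicate error is unknown, no strain difference could be tested, and a difference between libraries is not shown to be one between strains. The XUTs and mRNAs of a list are features of the same 2 libraries and not replicates of a condition.

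Exo2, the S. pombe Xrn1, is the cytoplasmic exonuclease that digests RNA from its 5′ end once the cap has been removed. When an mRNA and an antisense RNA pair, they form double-stranded RNA, the substrate that Dicer cuts into siRNAs. In fission yeast the RNA interference pathway uses siRNAs bound to Argonaute, mainly to silence centromeric repeats. The libraries were made to ask whether duplexes of antisense XUTs and mRNAs give rise to small RNAs. The authors reported no enrichment of small RNA tags in antisense XUTs. Nor did they find a difference between overlapped and other stretches of the paired mRNAs, or reads there of the size typical for siRNAs. Whether the reads counted below are siRNAs was not tested. An XUT that covers an mRNA is complementary to it along its whole length, and small RNAs could then come from both strands.

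The deposited values are tag densities, the number of uniquely mapped reads per nt of a feature. Density multiplied by length gave whole reads, which are used below. All features outside coding exons together held 13555082 reads in WT and 13678760 in exo2Δ. The deleted gene, exo2 (SPAC17A5.14, chromosome I, 1778445 to 1782740), counted 254 WT reads and 57 exo2Δ reads, of which 251 and 26 lay in its coding exons. Its level was thus lower in the library labelled exo2Δ, although a deletion of the gene should leave no read in its coding exons. Where these 26 reads come from was not tested.

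A few covered genes whose strands are compared below are shown by their coding sequence. They are examples, chosen after the read numbers were seen, and other pairs differ as much or more. Each sequence is written 5′ to 3′ on the mRNA strand, from the RefSeq assembly ASM294v3, and the covering XUT carries its reverse complement. Capitals mark the start codon and, for tam12, also the stop codon. The first set shows genes that had far more reads on the XUT strand than on the mRNA strand, or in which the strands differed in opposite directions between the libraries. They are spo4 (chrII:3827178-3827237, plus strand), a kinase needed in meiosis, dmc1 (chrI:3382332-3382391, plus strand), the meiotic recombinase, ste6 (chrIII:1766086-1766145, plus strand), the exchange factor that activates Ras in mating, and mug93 (chrII:1461719-1461775, plus strand), a TPR repeat protein. In mug93 the stretch stops at the end of the first coding exon.
spo4: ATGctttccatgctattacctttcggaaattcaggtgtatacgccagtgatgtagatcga
dmc1: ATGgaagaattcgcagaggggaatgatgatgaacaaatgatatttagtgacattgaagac
ste6: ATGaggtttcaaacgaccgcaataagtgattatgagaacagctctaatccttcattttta
mug93: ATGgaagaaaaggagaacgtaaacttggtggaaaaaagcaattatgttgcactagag

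The second set shows genes with a higher density on the mRNA strand than on the XUT in both libraries. They are mcm6 (chrII:3882937-3882996, minus strand), a subunit of the MCM helicase that opens DNA for replication, and the whole coding exon of tam12 (chrII:3509703-3509903, minus strand), which is 201 nt long and lies entirely inside an XUT of 730 nt. The annotation gives no function for tam12.
mcm6: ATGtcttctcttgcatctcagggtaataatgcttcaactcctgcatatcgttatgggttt
tam12: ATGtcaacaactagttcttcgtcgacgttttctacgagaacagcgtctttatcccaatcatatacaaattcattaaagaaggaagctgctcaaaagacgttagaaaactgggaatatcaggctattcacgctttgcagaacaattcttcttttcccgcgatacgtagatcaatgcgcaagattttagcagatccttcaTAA

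The members lay on all 3 chromosomes, 21 on I, 19 on II and 6 on III, with 24 on the plus strand and 22 on the minus strand. Their median length was 1874 nt (371 to 4073), against 551 nt for the 1159 other antisense XUTs and 518 nt for the 433 solo XUTs, which have no such mRNA opposite. This length is in part set by the rule, since a short XUT cannot contain an mRNA. The XUT reached a median of 234 nt beyond the mRNA start (5 to 1658) and 226.5 nt beyond its end (1 to 1387). In 22 of the 48 pairs it went farther past the start than past the end. The mRNA took a median of 63.1% of the XUT, from 20.7% for hot13 in XUT0773 to 97.6% for ght6, a hexose transporter gene, in XUT0023. These extents are drawn in the map of XUT and mRNA ends.

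**Figure D1:**
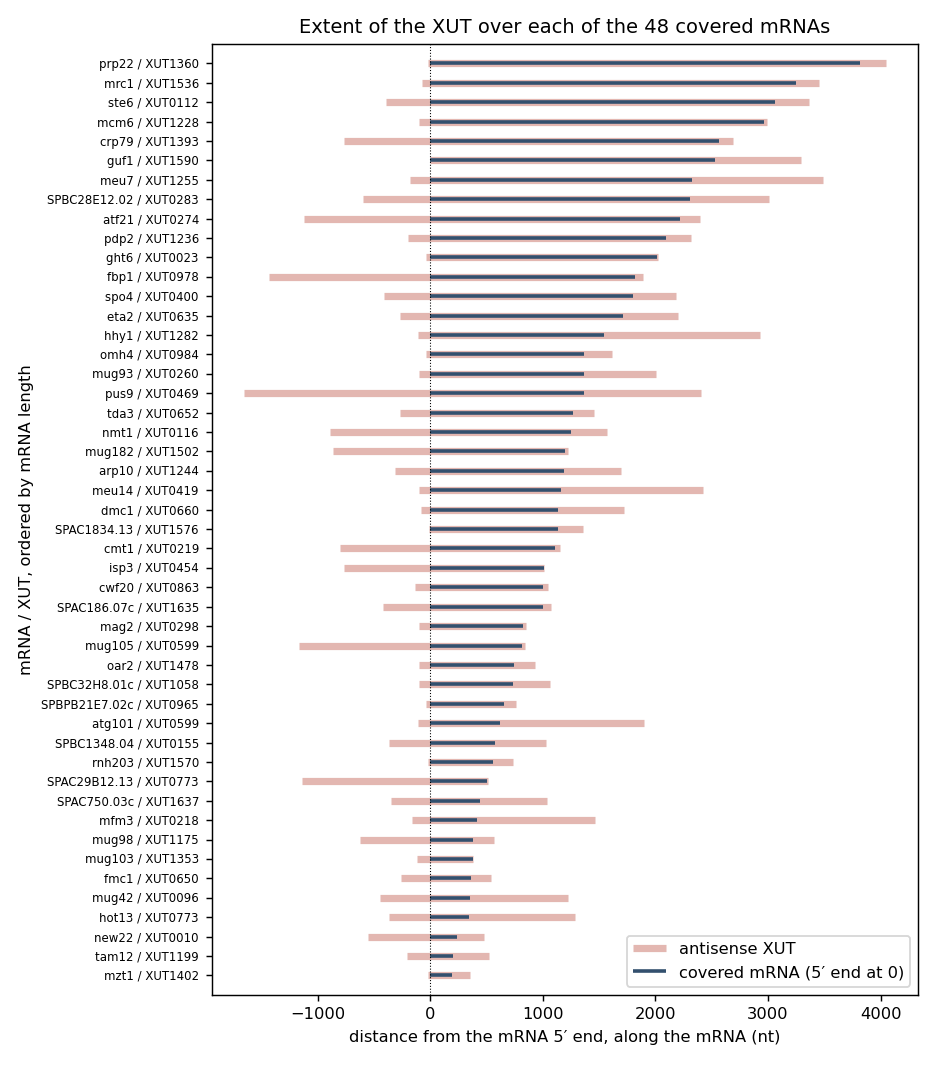
Extent of the XUT (wide bars) over each of the 48 covered mRNAs (narrow bars), drawn along the mRNA with its 5′ end at 0 and ordered by mRNA length; the horizontal axis is in nt. Every wide bar passes both ends of the narrow one, by as much as 1658 nt past the start of pus9 and as little as 1 nt past the end of isp3.

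Of the 46 members, 44 covered 1 mRNA and 2 covered 2. XUT0599 (chromosome I, 2527922 to 2529927) contains atg101, an autophagy gene, and mug105, annotated as a protease for a ubiquitin-like modifier. XUT0773 (chromosome I, 5437842 to 5439492) contains hot13, a mitochondrial protein gene, and SPAC29B12.13. The rule has a sharp edge, because 17 of the 48 pairs had less than 50 nt of XUT beyond one end of the mRNA. Just inside it, XUT0454 passed the end of isp3 by 1 nt, XUT0773 that of SPAC29B12.13 by 3 nt and XUT1353 that of mug103 by 4 nt. Just outside it, XUT0194 left 1 nt of cdt1 uncovered, and this XUT had 14 reads in WT and 55 in exo2Δ. XUT0927 left 12 nt of SPCC576.17c uncovered and had 100 and 116 reads, XUT0527 left 23 nt of SPAC10F6.15 uncovered and had 42 and 58 reads, and XUT0578 left 24 nt of SPAC18G6.13 uncovered and had 7 and 3 reads. The members themselves had 0 to 126 reads in WT and 0 to 99 in exo2Δ, so that XUT0927 in exo2Δ was above all of them.

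Most members ran along other annotated noncoding transcripts on their own strand. In 37 of 46 (80.4%) an annotated ncRNA gene or noncoding unit shared at least 1 base with the XUT, against 38.7% of the other antisense XUTs and 42.3% of the solo XUTs. Among XUTs of 2000 nt or more the shares were 95.5% of 22 members, 76.8% of 56 other antisense XUTs and 66.7% of 9 solo XUTs. In 26 members an ncRNA gene overlapped at least 90% of the XUT. Reads are counted in each of these features, so a member's value is mostly also that of the ncRNA. No member shared a base with an mRNA on its own strand. Several members also ran partly over further genes on the other strand, such as tim54 beside meu14 opposite XUT0419, and mzt1, itself covered by XUT1402, lies inside the annotated span of SPAC9G1.08c. A density here is that of the whole XUT, flanks included, and was not split into the stretch opposite the mRNA.

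The covering XUTs had few small RNA reads, and somewhat more of them in the exo2Δ library. Summed over all 46, the members had 1173 reads in WT against 1433 in exo2Δ, which gave a log2 ratio of 0.29 (0.17 to 0.40). This interval, like those that follow on ratios, is an exact binomial 95% interval of the reads. It covers counting error only, since no molecular identifiers were used and PCR copies of 1 molecule cannot be told apart. The 33 members that averaged 10 reads or more held 1126 and 1376 of these reads, again a log2 ratio of 0.29 (0.17 to 0.40). The 13 members below that level held 47 and 57 reads. Member by member, as deposited, 31 of 46 had more reads in exo2Δ than in WT, 12 had fewer and 3 had equal numbers. Over all 9139 features, 3478 had more, 4685 had fewer and 976 had equal numbers. For the 1159 other antisense XUTs these numbers were 555, 386 and 218. No read was counted in 3 members in WT and in 2 members in exo2Δ, which allows up to 3 reads each. With the libraries scaled on sn(o)RNAs, which shifts log2 ratios of sums by -0.24, the sum over all 46 gave a log2 ratio of 0.042.

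**Figure D2:**
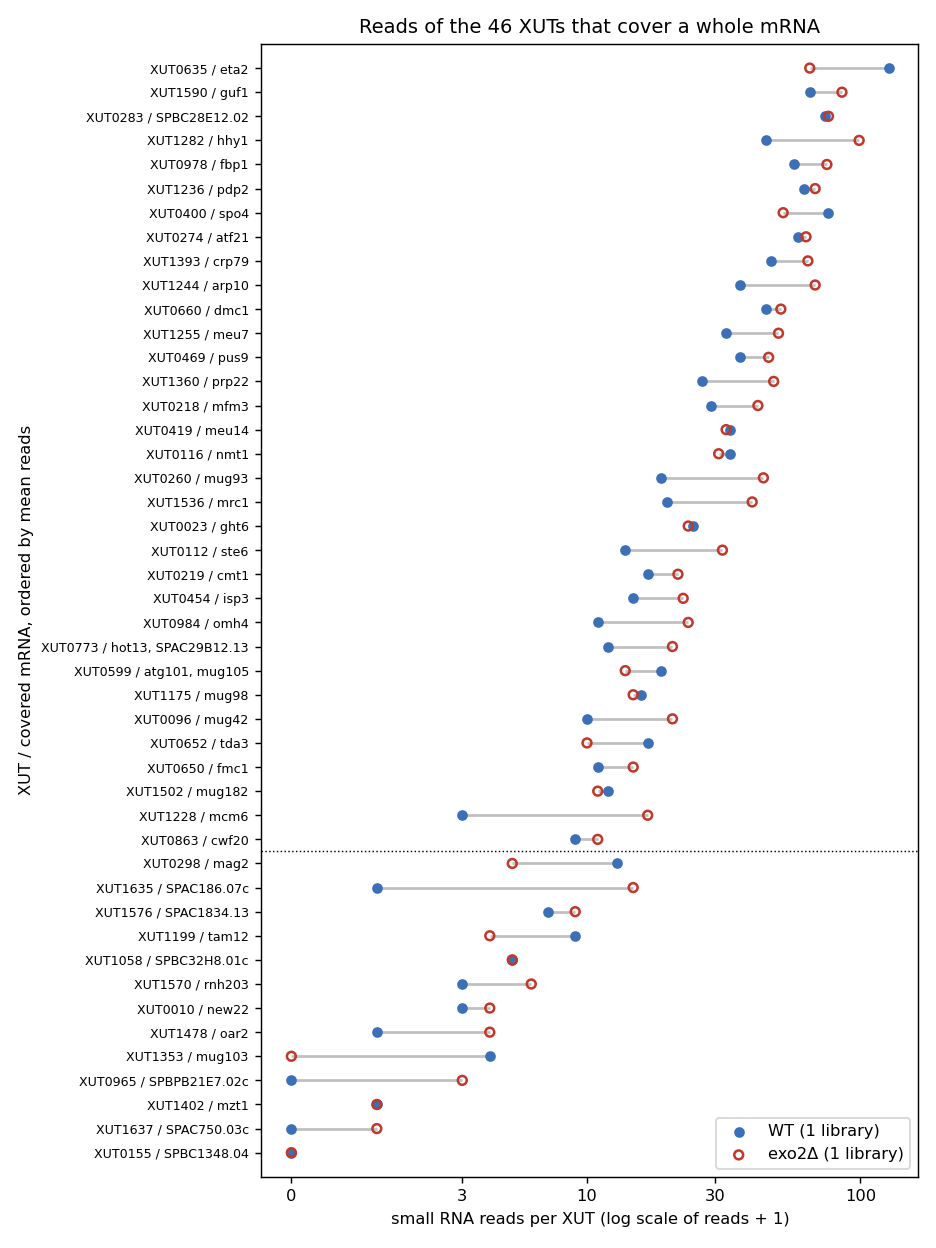
Small RNA reads of each of the 46 covering XUTs in the WT library (filled points) and the exo2Δ library (open points), on a log axis of reads + 1 and ordered by mean reads; each point is 1 library, and the dotted line separates the 33 XUTs that average at least 10 reads from the 13 below. XUT0635 had 126 and 66 reads, and XUT0155 had no read in either. Of the 46, 31 lie farther right in exo2Δ, where 3478 of all 9139 features had more reads.

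These reads were a small part of all XUT reads. The members held 0.411% of the reads in XUTs in WT (0.388% to 0.435%, Wilson 95% interval) and 0.665% in exo2Δ (0.631% to 0.700%). A few other XUTs weighed heavily in those totals. XUT0590, a solo XUT, alone had 173899 and 91404 reads, and XUT0245, an antisense one, had 62887 and 88907. With XUT0245 the other antisense XUTs summed to 95637 reads in WT against 115102 in exo2Δ, a log2 ratio of 0.26. Without it they summed to 32750 and 26195 reads, a log2 ratio of -0.33. That remainder still held XUT0133, another antisense XUT, counted 16828 times in the WT library but 5241 times in exo2Δ (log2 ratio -1.69). The sign of -0.33 depends on XUT0133, so it does not show that other antisense XUTs were generally lower in exo2Δ. Taken singly, 555 of these 1159 XUTs were higher in exo2Δ and 386 were lower. No member dominated its own list in this way. XUT0635, the highest, took 10.7% of member reads in WT and 4.61% in exo2Δ, and the 10 highest together took 55.9% and 50.5%.

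Single members held more reads than other XUTs, in part because they were longer. The median was 16.5 reads in WT and 22.5 in exo2Δ, against 2 and 3 among other antisense XUTs. In density, which allows for length, the members had a median of 0.00902 tags per nt in WT and 0.0118 in exo2Δ. Other antisense XUTs had 0.00411 and 0.00502, and solo XUTs 0.00472 and 0.00448. Among XUTs of 2000 nt or more, the 22 members had median densities of 0.0136 and 0.0160 tags per nt against 0.00845 and 0.0122 in 56 other antisense XUTs and 0.0100 and 0.00968 in 9 solo XUTs. Between 1000 and 2000 nt they were 0.00665 and 0.0100 in 17 members, 0.00639 and 0.00840 in 205 other antisense XUTs and 0.00951 and 0.00991 in 69 solo XUTs. The members' median was thus above that of other antisense XUTs in both libraries in each of these length classes, but below that of solo XUTs in WT in the shorter class. Of the 163 XUTs with the highest mean reads 21 were members, and the highest member ranked 24th.

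The highest member in WT was XUT0635 (chromosome I, 3001787 to 3004254, minus strand), opposite eta2, annotated as a termination factor of RNA polymerase I. It had 126 WT reads and 66 exo2Δ reads, which was 1.91-fold lower and the lowest log2 ratio of the 33, at -0.93. The covered eta2 mRNA had 15 reads in each library. Within this XUT the ncRNA gene SPNCRNA.74 (783 nt) held 91 and 57 of the reads, so that they were not spread evenly along it. XUT1590, opposite the GTPase gene guf1, had 66 reads in WT and 86 in exo2Δ. XUT1236, opposite pdp2, which encodes a PWWP domain protein, had 63 and 69.

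In exo2Δ the highest member was XUT1282 (chromosome I, 91000 to 94041, plus strand), opposite hhy1, annotated as a hydrolase. It had 46 reads in WT against 99 in exo2Δ, 2.15-fold higher (1.50 to 3.12). The overlapping ncRNA gene SPNCRNA.139, which shares 754 nt with it, had 1 read in WT and 12 in exo2Δ. XUT1244, opposite arp10, a gene for an actin-like protein, had 37 reads in WT against 69 in exo2Δ, 1.86-fold higher (1.23 to 2.85). The arp10 mRNA itself had 0 and 4 reads.

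Several of the best covered members lay opposite mRNAs with hardly any read. XUT0283 had 75 reads in WT and 77 in exo2Δ, while the mRNA opposite, SPBC28E12.02, annotated as an RNA-binding protein, had 0 and 1. XUT0274 had 60 and 64 reads, while atf21, a transcription factor gene of the Atf-CREB family, had 3 in each library. XUT1393 had 48 and 65 reads, while crp79, which encodes a poly(A)-binding protein, had 2 in each. For these 3 pairs nearly all reads were on the XUT strand in both libraries. XUT0978, opposite fbp1, had 58 and 76 reads. The fbp1 gene encodes the gluconeogenic fructose bisphosphatase and is repressed by glucose. Its mRNA had 14 reads in WT and 52 in exo2Δ.

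Among the 33 members that averaged at least 10 reads, the log2 ratio of exo2Δ over WT, taken after adding 1 read to both, had a median of 0.37. It ranged from -0.93 to 2.17, with 24 above 0 and 9 below as deposited, and 20 above and 13 below when scaled on sn(o)RNAs. The same median was 0.17 for 219 other antisense XUTs, 0.05 for 82 solo XUTs, -0.15 for 4749 mRNAs and -0.13 for all 5945 features at that level. A feature that is high in either library enters this filter more easily, so the medians and counts over those that passed describe these libraries and support no difference between classes. More than 2-fold higher in exo2Δ were 5 of the 33 (15.2%), where 3.97% of all features and 14.7% of all XUTs at that level were. More than 2-fold lower were 0 of the 33, where 6.91% of all features and 7.49% of XUTs were. The members' share of higher ones was therefore near that of XUTs in general. With 1 library per strain no p-value was computed for these counts.

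**Figure D3:**
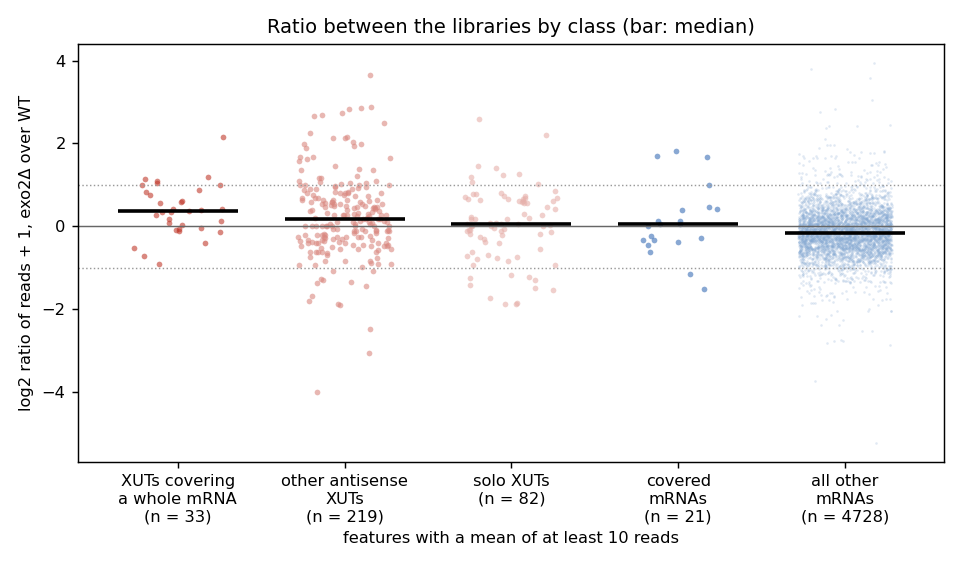
Log2 ratio of reads + 1, exo2Δ over WT, for features whose mean was 10 reads or more, as deposited; each point is a feature, bars are class medians and dotted lines mark a 2-fold difference. The medians run from 0.37 for the 33 covering XUTs and 0.17 for 219 other antisense XUTs to 0.04 for 21 covered mRNAs and -0.15 for the other mRNAs; scaling on sn(o)RNAs moves the median of covering XUTs to 0.13 and that of covered mRNAs below 0, to -0.20.

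The member with the largest ratio was XUT1228 (chromosome II, 3880074 to 3883165, plus strand), opposite mcm6. It had 3 reads in WT against 17 in exo2Δ, a ratio of 5.65 whose interval ran from 1.64 to 30.1. It was the only one of the 5 that shared no base with another feature on its own strand. XUT0260, opposite mug93, had 19 reads in WT against 45 in exo2Δ, 2.36-fold higher (1.35 to 4.28). XUT0112, opposite ste6, had 14 and 32 reads, 2.28-fold higher (1.18 to 4.63). XUT0984, opposite omh4, a mannosyltransferase gene, had 11 and 24 reads, 2.18-fold higher (1.03 to 4.92). XUT1282, described above, was the fifth. Without the added read, XUT0096 with 10 and 21 reads and XUT1536 with 20 and 41 were also above 2-fold, at 2.10 and 2.05. Scaling on sn(o)RNAs left 1 of the 33 above 2-fold, XUT1228, where 9.58% of XUTs and 2.51% of all features were, and put 1 below, XUT0635, where 12% and 12.4% were. Scaling on the median mRNA ratio put 8 above, with XUT0096, XUT1244 and XUT1536 added, where 19.5% of XUTs and 5.67% of all features were, and 0 below, where 6.89% and 4.74% were.

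At the other end of the order, 4 members followed XUT0635. XUT0652, opposite tda3, an amino acid oxidase gene, had 17 reads in WT and 10 in exo2Δ. XUT0400, opposite spo4, had 77 and 53 reads, 1.46-fold lower. Its ratio of 0.687 had an interval from 0.475 to 0.987. XUT0599 had 19 and 14 reads. XUT0116, opposite nmt1, a thiamine biosynthesis gene whose promoter is repressed by thiamine, had 34 and 31. For all of these but XUT0400 and XUT0635 the interval of the ratio included 1.

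Among members with a mean under 10 reads, XUT1635 (chromosome I, 5545541 to 5547034, plus strand), opposite SPAC186.07c, stood apart. It had 1 read in WT against 15 in exo2Δ, a ratio of 15.0 with an interval from 2.30 to 630. It lies 32099 nt from a chromosome end, and the ncRNA gene prl61 (SPNCRNA.61) nested in it had 0 and 8 reads. This member was singled out after its values were seen. The 7 members within 100 kb of an end had a median of 1 read in WT and 4 in exo2Δ, although XUT1282 had 46 and 99 and XUT0454 had 15 and 23. XUT0155, the member nearest to an end at 11805 nt, had no read in either library, and XUT1637, at 15734 nt, had 0 and 1.

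The mRNAs under these XUTs were themselves poor in small RNAs. The 48 together held 1348 WT reads and 1346 exo2Δ reads, a log2 ratio of -0.01 (-0.12 to 0.10), which was -0.25 when scaled on sn(o)RNAs and 0.15 on the median mRNA ratio. Over all 5129 mRNAs the ratio of the sums was -0.21 on this log2 scale. The median covered mRNA had 8.5 reads in WT and 5.5 in exo2Δ, against 98 and 90 over all mRNAs. In density the medians were 0.00834 and 0.00868 tags per nt for covered mRNAs, against 0.0485 and 0.0451. Covered mRNAs without any read numbered 4 in WT (8.33%) and 7 in exo2Δ (14.6%), against 2.57% and 2.34% of all mRNAs. In 33 of the 48 (68.8%) the coding sequence was a single exon, against 53.3% of all mRNAs. They were also shorter, with a median of 1131 nt against 1886 nt, which the rule favours.

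The covered mRNAs with the most reads belonged to DNA replication, splicing, translation and tRNA modification. The mrc1 mRNA, which encodes the replication checkpoint mediator claspin, had 211 WT reads and 137 exo2Δ reads, 1.54-fold lower (1.24 to 1.93). The mcm6 mRNA had 145 and 195 reads, 1.34-fold higher (1.08 to 1.68). The prp22 mRNA, for a spliceosomal helicase, had 186 and 147. For these 3 genes the XUT strand carried far fewer reads, with 20 and 41 in XUT1536 opposite mrc1, 3 and 17 in XUT1228 opposite mcm6, and 27 and 49 in XUT1360 opposite prp22. Next came guf1 with 117 and 127 reads and pus9, a tRNA pseudouridine synthase gene, with 132 and 108.

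A mean of at least 10 reads was reached by 21 of the 48 covered mRNAs. Over these the log2 ratio had a median of 0.04, with 11 above 0 and 10 below, and -0.20 with 7 above and 14 below when scaled on sn(o)RNAs. More than 2-fold higher in exo2Δ were 3 of them, where 2.4% of the mRNAs at that level were, and more than 2-fold lower were 2, where 5.05% were. These 5 stayed past 2-fold when scaled on sn(o)RNAs, where 1.54% of mRNAs were higher and 10.5% lower. They also did on the median mRNA ratio, where 3.56% were higher and 3.07% lower, and there isp3 joined the higher ones. As deposited and without the added read, the isp3 ratio was 2.05 (1.12 to 3.91). The fbp1 mRNA was 3.71-fold higher (2.02 to 7.24), from 14 to 52 reads. The tam12 mRNA, with 11 reads in WT and 38 in exo2Δ, was 3.45-fold higher (1.73 to 7.48), while XUT1199 opposite had 9 and 4. The atg101 mRNA, with 9 and 31 reads, was 3.44-fold higher (1.60 to 8.21). It shares XUT0599 with mug105, which had 61 and 85 reads, so that both mRNAs under this XUT had more reads in exo2Δ while the XUT had 19 and 14.

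In the lower direction, SPBC32H8.01c, annotated as uncharacterized, had 19 reads in WT against 6 in exo2Δ, 3.17-fold lower (1.22 to 9.71). The oar2 mRNA, for a reductase of fatty acid synthesis, had 28 and 12, 2.34-fold lower (1.15 to 5.05). The XUTs opposite these genes had 5 reads in each library and 1 and 4 reads. Below the filter, SPBC28E12.02 with 0 and 1 reads and arp10 with 0 and 4 had reads only in exo2Δ. Another 5 mRNAs had reads in WT and none in exo2Δ, of which 3 (spo4, new22 and SPAC186.07c) had only 1 or 2 reads in WT. The other two are named here because of these values. SPAC29B12.13 had 12 and 0, at least 4.01-fold lower against a limit of 3 reads in the library, and the exact binomial interval of its reads began at 2.78-fold. The mug93 mRNA had 11 and 0, at least 3.67-fold lower on the same basis with an interval that began at 2.52-fold, opposite the XUT that had 19 and 45.

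Coding exons made up 83.2% of the length of the covered mRNAs and held 86.6% of their reads in WT (84.6% to 88.3%, Wilson 95% interval) and 84.0% in exo2Δ (82.0% to 85.9%). The rest, in untranslated regions and introns, went from 181 reads in WT to 215 in exo2Δ. In some genes the reads lay outside the coding exons more than length would give. The isp3 mRNA, for a spore coat protein, had 17 and 35 reads, of which 14 and 34 were outside its coding exon, in 45.4% of its length. In SPAC1834.13 these were 24 of 25 reads in WT and 19 of 19 in exo2Δ, in 79.0% of its length, and its end overlaps the start of sec18 on the same strand. In guf1 they were 70 of 117 and 73 of 127, in 22.6% of its length.

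Both strands of a pair were then compared within each library, where the scaling of the libraries has no part. In WT the XUT had the higher density in 18 of 48 pairs (37.5%), the mRNA in 28, and 2 had no read on either strand. In exo2Δ the XUT was denser in 27 of 48 pairs (56.2%), the mRNA in 20, and 1 had no read on either strand. Among the 1218 other pairs of an mRNA and an antisense XUT that overlap by at least 50 nt, the XUT was denser in 9.03% in WT and 11.7% in exo2Δ. The XUT was denser in both libraries in 16 pairs and the mRNA in both in 18, in 10 the mRNA was denser in WT and the XUT in exo2Δ, in 2 the reverse held, and the last 2 had no read in at least 1 library. Many of these comparisons rest on few reads, since in 19 pairs only the XUT had a mean of at least 10 reads, in 5 only the mRNA, and in 8 neither.

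**Figure D4:**
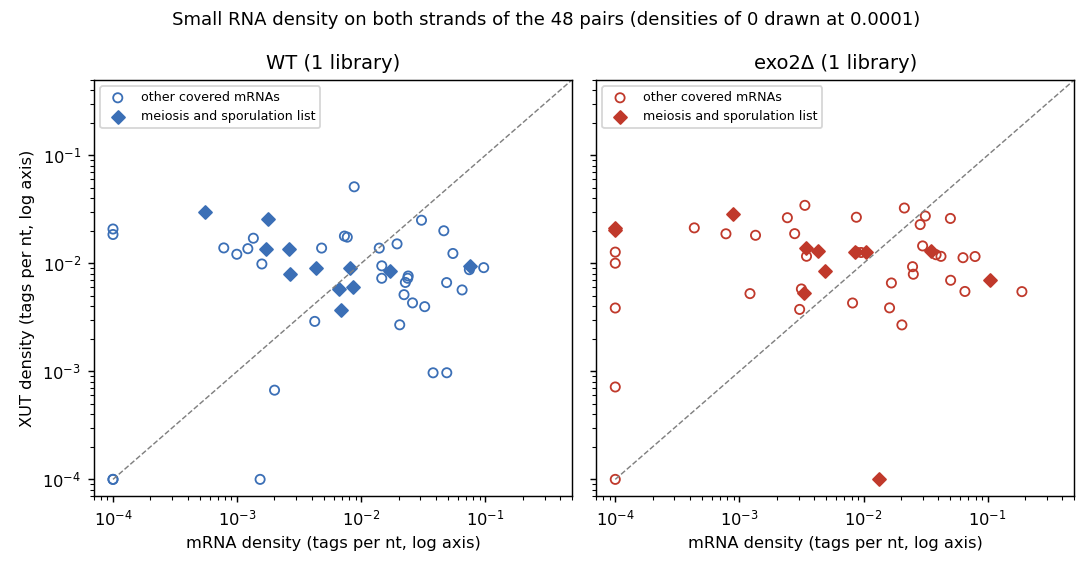
Density of the covering XUT against that of the covered mRNA in the WT library (left) and the exo2Δ library (right), in tags per nt on log axes with densities of 0 drawn at 0.0001; diamonds are the 12 mRNAs of the meiosis and sporulation list, and the dashed line marks equal density. Pairs above the line number 18 of 48 in WT and 27 of 48 in exo2Δ.

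In 16 pairs both the XUT and the mRNA averaged at least 10 reads. Both had more reads in exo2Δ in 8 of them, the XUT more and the mRNA fewer in 5, and the XUT fewer and the mRNA more in 2. In the last, XUT0635 and eta2, the XUT had fewer reads and the mRNA an equal number. No pair had both strands past 2-fold. The log2 ratio of XUT over mRNA changed from WT to exo2Δ by a median of 0.42, above 0 in 11 pairs and below 0 in 5. Its extremes were -2.09 for XUT0599 over atg101 and 1.75 for XUT1228 over mcm6. In ste6 the strands went apart, with 21 reads in WT and 15 in exo2Δ on the mRNA and 14 and 32 on XUT0112. The pdp2 pair was the most even, with 64 and 66 reads on the mRNA beside 63 and 69 on the XUT.

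Genes of meiosis and sporulation, many of which are kept silent in growing cells, made up 12 of the 48 covered mRNAs. That is 6.86% of a list of 175 such genes, where 0.936% of all mRNAs were covered. The list was chosen with earlier results of these data known. Of the list, 49 had an antisense XUT over at least 50 nt. Among all 5129 mRNAs, the 48 covered and 1038 others had one. Members of the list were collected by symbol (spo, meu, mug and similar stems, and further genes by name), so some have no known role. The XUTs of these 12 together had 299 WT reads and 350 exo2Δ reads, a log2 ratio of 0.22, and the 12 mRNAs had 138 and 165. Of these mRNA reads, mug105 alone held 61 and 85, and isp3 held 17 and 35. The XUT was the denser strand in 7 of these 12 pairs in WT and in 9 in exo2Δ. The contrast was widest for spo4, with 77 and 53 reads on XUT0400 (chromosome II, 3826743 to 3829336) against 1 and 0 on the mRNA. For dmc1 it was 46 and 52 on XUT0660 (chromosome I, 3382192 to 3383991) against 2 and 1.

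For the other genes of this list the balance of strands varied. Opposite meu14, which encodes a protein of the forming spore membrane, XUT0419 had 34 reads in WT and 33 in exo2Δ against 2 and 5 on the mRNA. XUT1255 had 33 and 51 opposite meu7, an alpha-amylase gene with 10 and 8. XUT1175 had 16 and 15 opposite mug98, with 1 and 4. The XUT strand was thus the denser one in both libraries in these 3 genes. For mug105 the mRNA was denser in both libraries, and in isp3 too, where XUT0454 had 15 and 23 reads beside 17 and 35. XUT0096 had 10 and 21 reads opposite mug42, with 3 in each, and XUT1502 had 12 and 11 opposite mug182, with 8 and 4. The last of them, mug103, was covered by XUT1353, which had 4 reads in WT and none in exo2Δ. Outside the list, mfm3 encodes M-factor, the mating pheromone made by h- cells. Its mRNA had 3 and 1 reads in these h+ strains and XUT0218 opposite had 29 and 43.

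Of 18 genes of 5′-3′ decay and nonsense-mediated decay, and of 12 genes of RNA interference, none was covered. Of all mRNAs 0.936% were. At a mean of at least 10 reads, where 2.4% of all mRNAs were more than 2-fold higher in exo2Δ and 5.05% lower, 0 of 18 mRNAs of the first list were higher and 1 was lower, and 0 of 11 of the second were either. Of the meiosis and sporulation list 4 of 109 were higher and 10 lower, against the same shares. An antisense XUT over at least 50 nt lay opposite the 48 covered mRNAs and 1038 others among all 5129. Of 69 DNA repair genes, 30 had one. Wholly covered was 1 of the 69 (1.45%, against 0.936% of all mRNAs), the DNA glycosylase gene mag2. It had 1 read in each library, and XUT0298 had 13 and 5. Further members include XUT0863 opposite the splicing gene cwf20, with 9 reads in WT and 11 in exo2Δ, XUT0219 opposite the methyltransferase gene cmt1, with 17 and 22, XUT0650 opposite fmc1, an ATP synthase assembly gene, with 11 and 15, XUT1570 opposite rnh203, a ribonuclease subunit gene, with 3 and 6, and XUT1402 opposite the spindle gene mzt1, with 1 in each. XUT0469, opposite pus9, had more, with 37 and 47. XUT0023 had 25 and 24 opposite the ght6 mRNA, with 2 and 7. Fewer than 10 reads in each library were found in XUT1576 opposite SPAC1834.13, with 7 and 9, XUT0010 opposite new22, with 3 and 4, and XUT0965 opposite SPBPB21E7.02c, with 0 and 3.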

How the data were processed

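Reads were size-selected, trimmed of adapters with cutadapt and mapped with Bowtie, keeping uniquely mapped reads and allowing 3 mismatches. The authors deposited a signal per annotated feature and strand, the tag density in tags per nt. Per the labels the genome build was ASM294v2. Unique mapping leaves out reads from repeats. It was not determined whether the deposited densities count reads of all lengths. The table held 19343 rows, 10204 for coding exons and 9139 for other features, and totals are over the latter. Reads in overlapping features are counted in each.

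Density times length gave whole numbers for 100% of the WT rows, and a whole multiple of 0.998 in exo2Δ in 100% of rows, within 0.001. These steps were taken as reads, and the factor 0.998 was kept as the deposited scaling. Log2 ratios were taken after adding 1 read to each library and understate differences of features with few reads. The mean of at least 10 reads was first taken after the deposited scaling and then, once its effect had been seen, on whole reads. The members and gene lists were chosen with earlier results of these data known. Named were exo2, the 10 members with the highest mean, the 5 largest and 5 smallest ratios among members and among covered mRNAs, the 5 covered mRNAs with the highest mean, members covering 2 mRNAs and covered genes of the lists, each with its partner. Others are named to fill out a group, after their values were seen.

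Intervals are exact binomial for ratios and Wilson for shares. An interval by rank over the features was used for medians, only to label the alternatives. A count of 0 was taken to allow 3 reads. Sequences and gene symbols came from ASM294v3, in which 98.4% of 10190 deposited coding exons have the same coordinates. All 48 covered mRNAs have ATG there at the deposited coding start. Scripts used python 3.11.15, pandas 2.3.3, numpy 2.4.6 and scipy 1.17.1 and were tested on simulated data.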

Additional observations from a re-analysis of the deposited data

How the results depend on the processing

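No paired analysis was possible because there was 1 library for each strain. Of 82 values recomputed under alternatives, 49 kept their direction and stayed within the 95% interval of the reported value (counts within 1.5 times), 24 moved further and 9 reversed. The cause of these differences was not tested beyond the construction of each alternative. All 9 reversed values were the sum or the median log2 ratio of the covered mRNAs, whose reported values were small, at -0.0052 and 0.041. For medians the interval was taken by rank over the features, which are not replicates, so it measures no error between libraries. On sn(o)RNAs the median of covering XUTs was thus counted among the 49 at 0.13, from 0.37. Scaling on sn(o)RNAs gave log2 ratios of 0.042 for the reads of all covering XUTs and 0.042 for the 33 above the filter, 1 XUT past 2-fold in each direction, -0.25 for the covered mRNAs and a reversed mRNA median of -0.20. Scaling on the median mRNA ratio, a shift of 0.16, gave 0.44 and 0.44, 8 higher XUTs and a reversed mRNA sum of 0.15. A pseudocount of 0.1 reads gave 7 higher XUTs, and a pseudocount of 5 reads left 3. Without a filter there were 8 higher and 3 lower XUTs and the mRNA median was -0.0022, while a mean of at least 50 reads left 1 higher XUT and an mRNA median of -0.094. Requiring 50 nt beyond both ends (31 XUTs) left 3 higher XUTs, with -0.12 for the mRNA sum and -0.0029 for the mRNA median. Requiring only the coding exons inside the XUT (130 XUTs) gave 0.44 and 0.45, 13 higher and 2 lower XUTs, -0.24 and -0.26. The 9 XUTs without another feature on their strand gave 0.69 for all, 2.50 and a median of 2.17 for the single one at 10 reads, 1 higher XUT, 0.42 for the mRNA sum and 1.75 for the XUT over mRNA change. Leaving out mrc1 turned the mRNA sum to 0.086. Chosen after seeing the data, leaving out members within 100 kb of a chromosome end turned the mRNA median to -0.0029, and taking the mean after the deposited scaling left 31 XUTs with 4 higher. The median log2 ratio of covering XUTs stayed above 0 in every alternative run. Depth also limits these values, since most members had under 50 reads in each library.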
